A study of Mus musculus with 2 samples.

Results

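The genes described here encode the proteins of the mitochondrial ribosome. They were taken as every gene name on a non-control spot that begins with Mrpl or Mrps followed by a digit, which gave 78 of the 29608 gene names on the array, 49 for the large subunit (Mrpl) and 29 for the small subunit (Mrps). These 78 are all the protein-coding genes of that name pattern in the RefSeq gene list used here. RNA came from 661W, a mouse photoreceptor line with cone-like features that was derived from a retinal tumour of a mouse carrying a viral oncogene. One culture condition was choline-deficient, 3 days in DMEM/F12 without choline, and the other was choline-sufficient, 3 days in the same medium with choline, given as 8.98 g/L in the labels, a figure that could not be checked here. The growth protocol in the labels also lists fetal bovine serum and does not say whether the serum was kept during the treatment. The design text speaks of RNA pooled from 4 dishes without saying whether this was per condition.

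The mitochondrial ribosome sits in the mitochondrial matrix and translates the few messenger RNAs transcribed from mitochondrial DNA, all of which code for subunits of the respiratory chain and the ATP synthase. Its ribosomal RNAs come from mitochondrial DNA, but every one of its proteins is encoded in the nucleus, made in the cytosol and imported. The small subunit binds the messenger RNA and decodes it, and the large subunit joins the amino acids and releases the growing chain through an exit tunnel towards the inner membrane. Photoreceptors are rich in mitochondria, and inherited defects of several of these proteins in humans impair the respiratory chain.

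Each condition was read on 1 array of a shared slide, which allows no test between conditions, and no replicate bears on any difference given here. Signals are given relative to the 75th percentile of the array, on a linear scale, and a signal of one probe is not compared with that of another. A difference is the log2 signal on the choline-deficient array minus that on the choline-sufficient one. The value after ± is the scanner software's error, which leaves out variation between cultures. Its median was 0.204 over the ribosome genes and 0.204 over all measured genes. For most genes a limit of 2 errors is thus nearly a fixed cutoff. Of the 43020 non-control spots on each array, 70.7% were well above background on the choline-deficient and 68.5% on the choline-sufficient array, and 19816 genes were measured on both. The median difference over these genes was -0.10, with quartiles of -0.40 and 0.30. Of the 10 cone marker genes examined, 5 were measured on both arrays, with a summed relative signal of 0.415 on the choline-deficient and 0.279 on the choline-sufficient array, and Opn1sw, Cngb3 and Crx were well above background on neither. Summed over the 5 measured fibroblast markers of 6, the relative signal was 77.1 on the choline-deficient and 9.05 on the choline-sufficient array, with Lum above background on neither. For the 4 measured Müller glia markers of 6 it was 2.59 on the choline-deficient and 1.22 on the choline-sufficient array, with Kcnj10 above background on neither. Of the measured markers, 4 cone, 5 fibroblast and 3 Müller glia genes were higher on the choline-deficient array, while Arr3 (-0.41) and Aqp4 (-0.32) were lower. Most of the fibroblast sum was Col1a2, with 62.3 on the choline-deficient and 7.31 on the choline-sufficient array. The part of these marker differences in the results below was not tested. In bulk RNA, fewer cells of a type and less RNA per cell cannot be told apart.

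Genes of both subunits were mostly lower on the choline-deficient array. Of the 78 genes, all of them measured on both arrays, 23 (29.5%) were at least 1.5-fold lower there, whereas 14.1% of all measured genes were. Only Mrpl17 was at least 1.5-fold higher, against 14.8% of all measured genes. The differences of 65 of the 78 genes (83.3%) lay below 0, against 57.4% of all measured genes. Their median was -0.41, with quartiles of -0.68 and -0.10 and a range of -1.15 to 0.92. Most of the differences were small: 3 genes were at least 2-fold lower (Mrpl35, Mrps28 and Mrpl2) and 0 at least 2-fold higher, against 3.88% and 7.67% of all measured genes. The difference was larger than 2 scanner errors and negative in 39 genes, and larger than 2 errors and positive in Mrpl15 and Mrpl17. By the same rule 4477 of the 19816 measured genes were lower and 3843 higher.

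The median difference and the share of genes below 0 also depended on signal level on these arrays. Among the 3694 measured genes whose mean level fell within the interquartile range of the mitochondrial ribosome genes, a comparison chosen after the values were seen, 17.4% were at least 1.5-fold lower, 9.64% at least 1.5-fold higher, and the median was -0.18. Among the 1714 genes above that range 14.9% were at least 1.5-fold lower, 3.44% at least 1.5-fold higher, and the median was -0.31. Above the range 81.9% lay below 0, against 64.5% within it.

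**Figure D1:**
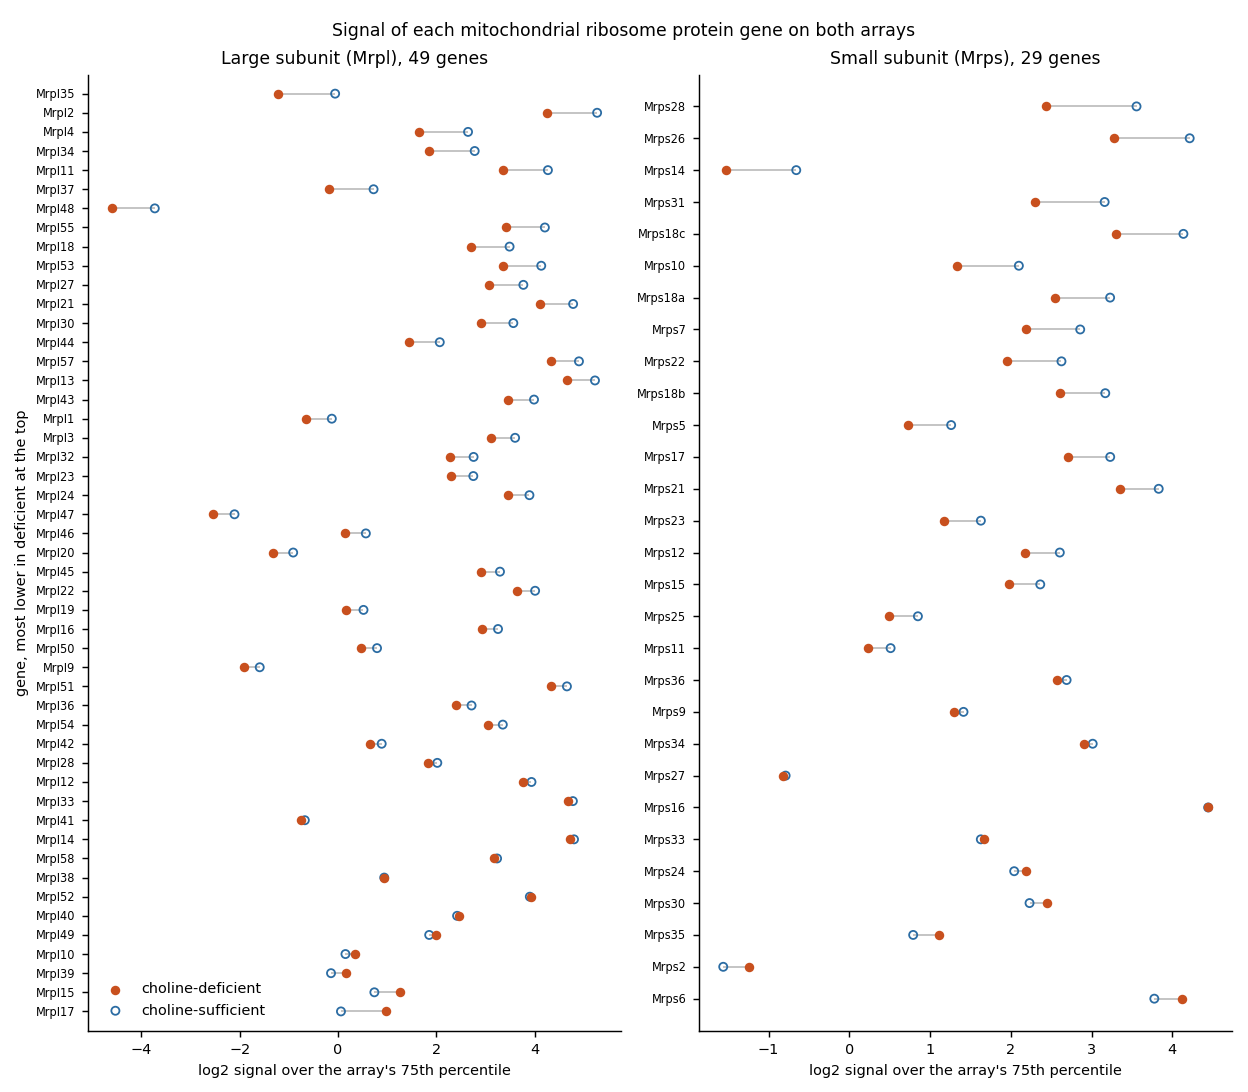
Signal of every mitochondrial ribosome protein gene on both arrays, as log2 of the signal over the array's 75th percentile (x axis), for the 49 large subunit genes (left) and the 29 small subunit genes (right). Filled points are the choline-deficient and open circles the choline-sufficient array; in 42 of 49 large and 23 of 29 small subunit genes the filled point lies to the left of the open one.

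The large and the small subunit overlapped almost entirely. In the large subunit 14 of 49 genes (28.6%) were at least 1.5-fold lower and 1 was higher, with a median of -0.41. In the small subunit 9 of 29 (31.0%) were lower, 0 were higher and the median was -0.43. The interquartile ranges overlapped over most of their length, from -0.66 to -0.18 for the large and from -0.68 to -0.03 for the small subunit, and the SD over genes was 0.41 for the large and 0.42 for the small subunit. The large subunit median was above the small subunit median by 0.02, and this gap stayed between 0.0021 and 0.053 under every other processing choice tried. Choices that only rescale a whole array cannot change this gap.

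Names and structures differ for a few of these genes. In structures of the mammalian ribosome the products of Mrps18a and Mrps30 are seen in the large subunit, and Mrps36 encodes a component of the 2-oxoglutarate dehydrogenase complex. Mrps18a had a relative signal of 5.83 on the choline-deficient and 9.38 on the choline-sufficient array, a difference of -0.69 ± 0.20. Mrps30 had 5.47 on the choline-deficient and 4.70 on the choline-sufficient array, a difference of 0.22 ± 0.20. Mrps36 had 5.92 on the choline-deficient and 6.45 on the choline-sufficient array (-0.12 ± 0.20). With the first 2 moved to the large subunit and Mrps36 left out, 15 of 51 large subunit genes were lower with a median of -0.41, and 8 of 26 small subunit genes with a median of -0.44.

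**Figure D2:**
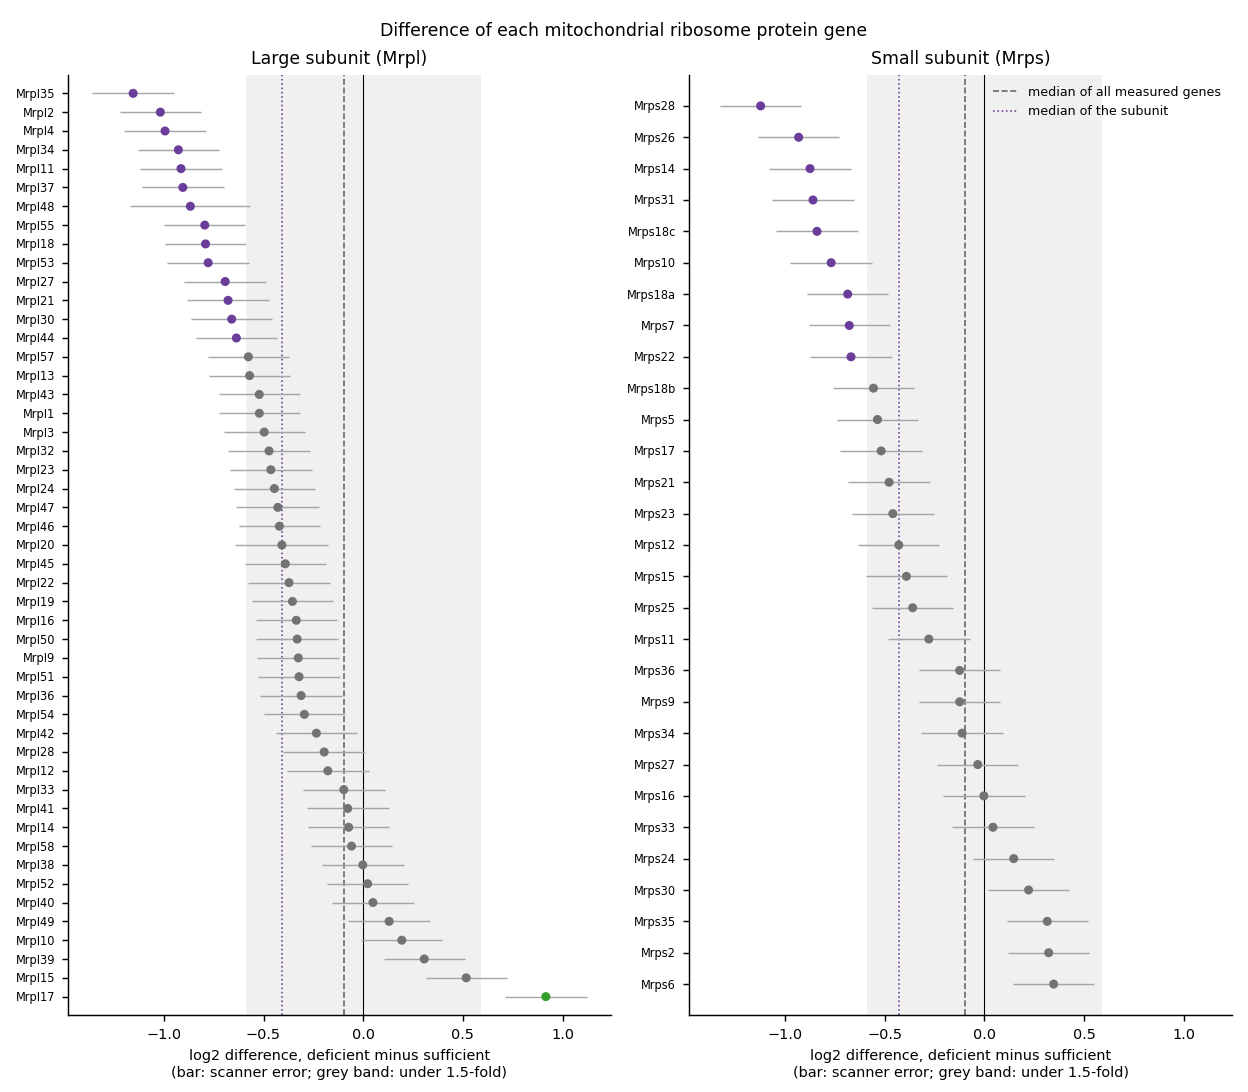
Log2 difference, choline-deficient minus choline-sufficient (x axis), of each large subunit gene (left) and small subunit gene (right), with the scanner error as a bar; the grey band holds differences under 1.5-fold. Purple points are the 14 large and 9 small subunit genes at least 1.5-fold lower, the green point is Mrpl17, the dotted line is the subunit's median (-0.41 and -0.43) and the dashed line the median of all measured genes (-0.10).

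Among the 6 large subunit genes lowest on the choline-deficient array, 5 encode proteins that bacteria also have, as do 30 of the 49. Mrpl35 had a relative signal of 0.432 on the choline-deficient and 0.960 on the choline-sufficient array, 2.22-fold lower (-1.15 ± 0.20). Mrpl2, whose product lies beside the peptidyl transferase centre where amino acids are joined, had 19.1 on the choline-deficient and 38.7 on the choline-sufficient array (-1.02 ± 0.20). Mrpl4 had 3.15 on the choline-deficient and 6.26 on the choline-sufficient array (-0.99 ± 0.20), and its 2 probes gave -1.01 and -0.97. Mrpl34, whose probe is spotted 10 times, had 3.62 on the choline-deficient and 6.88 on the choline-sufficient array (-0.93), with an SD of 0.04 over the 10 spots. Mrpl37, a gene with no bacterial counterpart, had 0.882 on the choline-deficient and 1.65 on the choline-sufficient array (-0.90 ± 0.20).

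At the other end stood Mrpl17 and Mrpl15, both with bacterial counterparts. Mrpl17, whose product lies near the rim of the exit tunnel, had 1.97 on the choline-deficient and 1.04 on the choline-sufficient array, 1.89-fold higher (0.92 ± 0.20), measured by 1 probe. Mrpl15 had 2.39 on the choline-deficient and 1.67 on the choline-sufficient array (0.52 ± 0.20), and its 2 probes gave 0.47 and 0.57. The probe of Mrpl17 lies at chr7:112958345-112958404 on the minus strand of mm9, the build of the array files, and that of Mrpl35 at chr6:71765277-71765336, also on the minus strand.

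In the small subunit the lowest gene was Mrps28, with a relative signal of 5.40 on the choline-deficient and 11.8 on the choline-sufficient array, 2.18-fold lower (-1.12 ± 0.20). Mrps26, a protein found only in mitochondrial ribosomes, followed with 9.73 on the choline-deficient and 18.6 on the choline-sufficient array (-0.93 ± 0.20). Mrps14, of the subunit's head, had 0.346 on the choline-deficient and 0.634 on the choline-sufficient array (-0.87 ± 0.21). Mrps31, another mitochondria-specific protein, had 4.93 on the choline-deficient and 8.95 on the choline-sufficient array (-0.86 ± 0.20). Mrps18c, one of the related genes for the mitochondrial S18 proteins, had 9.83 on the choline-deficient and 17.6 on the choline-sufficient array (-0.84 ± 0.20). Its relative Mrps18b had 6.12 on the choline-deficient and 8.99 on the choline-sufficient array (-0.56 ± 0.20).

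No small subunit gene was higher by 1.5-fold. The highest was Mrps6, with 17.4 on the choline-deficient and 13.7 on the choline-sufficient array (0.35 ± 0.20). Mrps2 had 0.424 on the choline-deficient and 0.339 on the choline-sufficient array (0.32 ± 0.20). Mrps35, again on 10 spots, had 2.15 on the choline-deficient and 1.73 on the choline-sufficient array (0.32), with an SD of 0.11 over spots that ranged from 0.09 to 0.53. These differences are under 2 scanner errors.

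Further genes past 1.5-fold were Mrpl53 and Mrps22, both mitochondria-specific. Mrpl53 had 10.3 on the choline-deficient and 17.6 on the choline-sufficient array (-0.78 ± 0.20). Mrps22, defects of which in humans lower the activity of several respiratory complexes, had 3.88 on the choline-deficient and 6.18 on the choline-sufficient array (-0.67 ± 0.20). Several well-measured genes hardly differed between the arrays. Mrps16, with a bacterial counterpart, had 21.7 on the choline-deficient and 21.8 on the choline-sufficient array, Mrpl14 had 26.5 on the choline-deficient and 27.9 on the choline-sufficient array, and Mrpl33 had 25.7 on the choline-deficient and 27.5 on the choline-sufficient array. Mrps27, an RNA-binding protein of the small subunit, had 0.565 on the choline-deficient and 0.579 on the choline-sufficient array. Each of these 4 differences was within 1 scanner error of 0. Between these ends lay a middle set, such as Mrpl13 (-0.57), Mrps5 (-0.54), Mrpl1 (-0.52), Mrps17 (-0.52), Mrpl3 (-0.50), Mrps21 (-0.48), Mrpl32 (-0.47) and Mrps23 (-0.46), all past 2 scanner errors and under 1.5-fold. The remaining genes not named elsewhere ran from -0.41 in Mrpl20 to 0.02 in Mrpl52.

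The probes below are 60 bases long and match the genome in more than one block, so each reads across an exon junction of the spliced messenger RNA. They are shown because a sequence that spans a junction is not continuous in unspliced RNA or at the gene's own locus, and because they include genes from both ends of the range; 13 of the 110 probes of these genes are of this kind. Coordinates are those of the array files (mm9), and no letters are in capitals because no stretch is marked. Mrpl37 is at chr4:106733238-106734539 on the minus strand (-0.90 by this probe), Mrps31 at chr8:23538340-23539688 on the plus strand (-0.86), Mrpl47 at chr3:32629104-32630111 on the minus strand (-0.43), Mrps35 at chr6:147009999-147019119 on the plus strand (0.32) and Mrpl15 at chr1:4766862-4767644 on the minus strand (0.47).
Mrpl37: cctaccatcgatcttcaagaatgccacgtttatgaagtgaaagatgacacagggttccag
Mrps31: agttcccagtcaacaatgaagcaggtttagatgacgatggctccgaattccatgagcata
Mrpl47: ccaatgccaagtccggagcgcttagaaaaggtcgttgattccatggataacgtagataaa
Mrps35: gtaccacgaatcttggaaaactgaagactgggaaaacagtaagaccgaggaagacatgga
Mrpl15: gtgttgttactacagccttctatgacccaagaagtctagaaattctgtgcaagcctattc

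By place in the ribosome, 4 of 7 genes (57.1%) listed here for the central protuberance of the large subunit were at least 1.5-fold lower. Their median was -0.69. At least 1.5-fold lower were 14.1% of all measured genes and 29.5% of the 78 ribosome genes. The count for the protuberance was 2 of 7 under quantile normalization and under cyclic loess, where Mrpl55 and Mrpl27 fell short. It was 3 of 7 with normexp background correction and 1 of 7 with spike-in scaling. This knob faces the small subunit and in mammals is built around a structural transfer RNA from mitochondrial DNA. Mrpl18 had 6.50 on the choline-deficient and 11.3 on the choline-sufficient array (-0.79 ± 0.20), and Mrpl55 had 10.7 on the choline-deficient and 18.5 on the choline-sufficient array (-0.79 ± 0.20). Mrpl27, whose bacterial counterpart reaches towards the peptidyl transferase centre, had 8.46 on the choline-deficient and 13.7 on the choline-sufficient array (-0.69 ± 0.20). Mrpl48 differed by -0.87 ± 0.30, a mean over a bright probe at -0.68 and 2 dim probes at or below -0.92. The other 3 listed genes of the knob were Mrpl46 at -0.42, Mrpl38 at -0.0020 and Mrpl40 at 0.05, so its listed members did not move as one. The lists by place used here and below may leave out proteins of a region.

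Genes of the stalk, the arm of the large subunit that recruits translation factors, differed among themselves. Mrpl11, at the base of the stalk, had 10.3 on the choline-deficient and 19.3 on the choline-sufficient array (-0.91 ± 0.20). Mrpl12, which contacts the factors, had 13.5 on the choline-deficient and 15.3 on the choline-sufficient array (-0.18 ± 0.20). Mrpl10, which holds the Mrpl12 protein on the ribosome, had 1.27 on the choline-deficient and 1.11 on the choline-sufficient array (0.19 ± 0.20). The last pair of differences is within 1 scanner error of 0.

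Around the exit tunnel, 1 of 8 genes (12.5%) was at least 1.5-fold lower and 1 higher, shares close to the 14.1% and 14.8% of all measured genes, and the median was -0.41. The lower one was Mrpl44, with a ribonuclease-like fold, at 2.70 on the choline-deficient and 4.20 on the choline-sufficient array (-0.64 ± 0.20), and the higher one Mrpl17. Mrpl45, which anchors the ribosome to the inner membrane, had 7.49 on the choline-deficient and 9.83 on the choline-sufficient array (-0.39 ± 0.20). Mrpl22, Mrpl23, Mrpl24 and Mrpl47 lay between -0.46 and -0.37. Mrpl39 was at 0.31, but its probes gave 0.03 and 0.58.

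In the head of the small subunit 3 of 6 genes (50%) were at least 1.5-fold lower, against 14.1% of all measured genes and 31.0% of the small subunit. The count was 2 of 6 under quantile normalization and cyclic loess and 1 of 6 with spike-in scaling. Besides Mrps14 the lower genes were Mrps10 and Mrps7. Mrps10 had 2.52 on the choline-deficient and 4.28 on the choline-sufficient array (-0.77 ± 0.20). Mrps7 had 4.54 on the choline-deficient and 7.25 on the choline-sufficient array (-0.68 ± 0.20). Mrps9 at -0.12, Mrps24 at 0.15 and Mrps2 at 0.32 differed from 0 by less than 2 errors. Mrps12, the protein of the decoding site, had 4.52 on the choline-deficient and 6.09 on the choline-sufficient array (-0.43 ± 0.20).

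Mitochondrial ribosomes combine proteins inherited from bacteria with others acquired in eukaryotes. Among the 46 genes with a bacterial counterpart 15 (32.6%) were at least 1.5-fold lower and 1 higher, with a median of -0.45. Among the 27 genes without one 7 (25.9%) were lower, 0 were higher and the median was -0.33. Of all measured genes 14.1% were lower and 14.8% higher, and of the 78 ribosome genes 29.5% were lower. Within the large subunit the medians were -0.45 for 30 genes with and -0.32 for 17 genes without a counterpart. Within the small subunit they were -0.45 for 16 and -0.41 for 10 genes. No test of these gaps was made. Mrps18a, Mrps30, Mrps36, Mrpl57 and Mrpl58 were left out of this division. Mrpl58 also hydrolyses the bond between a stalled chain and its transfer RNA. It had 9.06 on the choline-deficient and 9.43 on the choline-sufficient array (-0.06 ± 0.20).

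Separate probes of one gene gave similar differences in most cases. Of the 26 genes with 2 or more measured probes, 23 had probes of 1 sign, and in 17 the probes lay within 0.2 of each other, with a median spread of 0.10. The exceptions were Mrpl41, with -0.54 and 0.39, Mrpl49, with -0.22 and 0.48, and Mrps33, with -0.010 and 0.097. For these 3 genes the mean over probes gives no direction. Mrps14 was lower by all 3 of its probes, which ran from -1.28 to -0.65. The remaining 52 genes rest on 1 probe each, among them Mrpl35, Mrps28, Mrpl2 and Mrpl17. A further probe of Mrpl21 was well above background on the choline-sufficient array alone and was not used, while the measured one had 17.2 on the choline-deficient and 27.6 on the choline-sufficient array (-0.68 ± 0.20). Mrpl23, Mrpl27, Mrpl48 and Mrps36 have pseudogenes in the RefSeq list, so their probes may also bind transcripts of those copies.

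**Figure D3:**
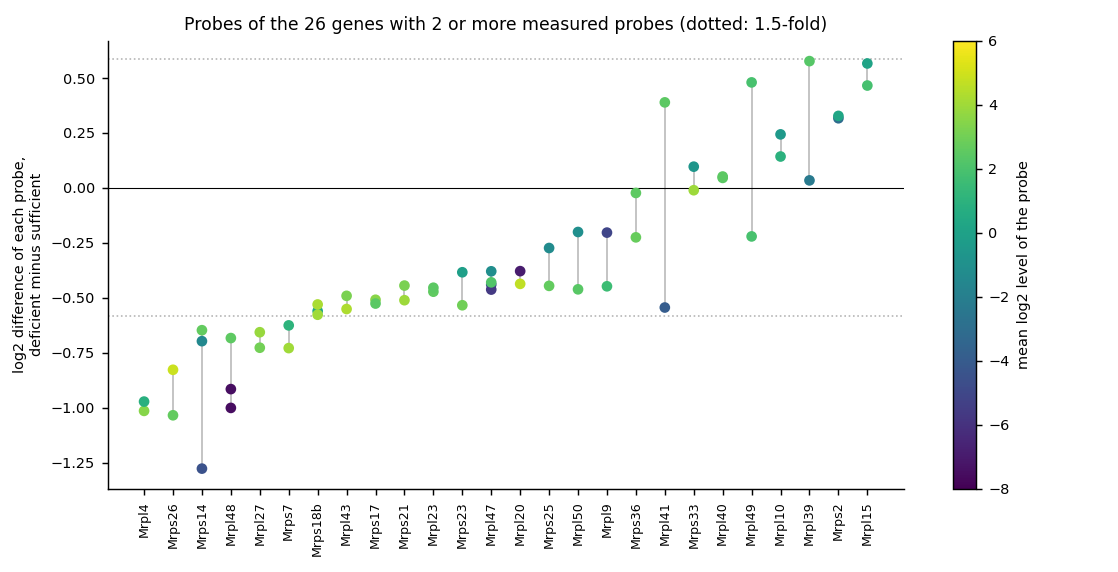
Log2 difference of each measured probe, choline-deficient minus choline-sufficient (y axis), for the 26 genes with 2 or more measured probes (x axis), coloured by the probe's mean log2 level over both arrays. In 23 genes all probes lie on the same side of 0; Mrpl41 and Mrpl49 have probes 0.93 and 0.70 apart on opposite sides.

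Which genes counted as lower depended in part on where the line was drawn. Mrpl44, at -0.64, was the last gene past 1.5-fold and Mrpl57, at -0.58, the first within it. Over the main scaling and 10 other ways of computing the values, 10 genes were at least 1.5-fold lower every time, 6 of the large subunit (Mrpl35, Mrpl2, Mrpl4, Mrpl34, Mrpl11 and Mrpl37) and 4 of the small (Mrps28, Mrps26, Mrps14 and Mrps31). Mrpl17 was at least 1.5-fold higher in all 11, at 0.80 to 1.19. Most of these genes, Mrpl17 among them, rest on 1 probe. Their values cannot change with the way probes are summarised or dim ones filtered, and the deposited values use the main scaling. Of the 78 genes, 52 lay below 0 in every setting and 9 above 0 in every setting.

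**Figure D4:**
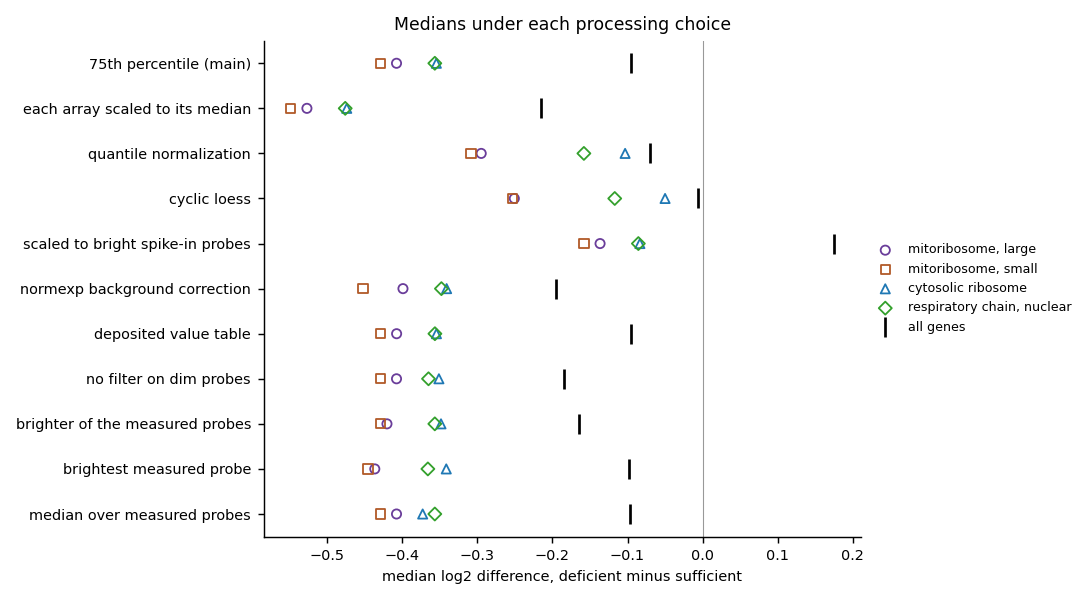
Median log2 difference, choline-deficient minus choline-sufficient (x axis), of the large and small subunit, the cytosolic ribosomal proteins, the nuclear respiratory chain genes and all measured genes, under each processing choice (rows). Both subunit medians stay below the all-gene median in every row, and under quantile normalization and cyclic loess the cytosolic ribosome moves closest to it (to -0.03 and -0.04 from the all-gene median).

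The cytosolic ribosome, built of separate nuclear genes, was also lower but more evenly. Of its 84 protein genes 81 were measured, and all 81 differences lay below 0, with quartiles of -0.43 and -0.28 and a median of -0.35. Among all measured genes 57.4% lay below 0. Most cytosolic ribosome genes lay above the interquartile level range of the mitochondrial ones. Among the 1714 measured genes above that range 81.9% lay below 0, and the median was -0.31. Of the 81 cytosolic genes 7 (8.64%, against 14.1% of all measured genes) were at least 1.5-fold lower and 0 higher. The 3 largest differences were in Rpl3l, a muscle-restricted gene with a dim signal (-0.93 ± 0.34), Rpl18 (-0.83 ± 0.20) and Rpl30 (-0.67 ± 0.20). Relative to all measured genes, the median of the mitochondrial ribosome genes was -0.32 and that of the cytosolic ones -0.26. Under quantile normalization these values were -0.23 and -0.03, and under cyclic loess -0.25 and -0.04. Both of these methods can remove differences that go with signal level.

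Nuclear genes of the respiratory chain, most of them with partners that the mitochondrial ribosome makes, had a median of -0.36. Of these 81 measured genes 16 (19.8%, against 14.1% of all measured genes) were at least 1.5-fold lower and 1 higher. Cox6a2, a muscle form of a cytochrome oxidase subunit, had 0.443 on the choline-deficient and 3.58 on the choline-sufficient array (-3.01 ± 0.20). Sdhd, a membrane anchor of succinate dehydrogenase, had 10.8 on the choline-deficient and 22.7 on the choline-sufficient array (-1.08 ± 0.20). Cox7a1, another muscle form, was the higher one at 0.816 on the choline-deficient and 0.332 on the choline-sufficient array (1.30 ± 0.20). The messages that the mitochondrial ribosome itself translates were measured for 9 of 13 genes of mitochondrial DNA. All 9 were slightly lower, from -0.48 to -0.18 with a median of -0.33, and 0 reached 1.5-fold. Below 0 were 57.4% of all measured genes and 81.9% of the 1714 genes above the mitochondrial ribosome genes' interquartile level range. The median of those 1714 genes was -0.31. ND6 was at -0.48, ND5 at -0.40 and ATP8 at -0.39.

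Factors that assemble the mitochondrial ribosome had a median of -0.41 over 25 genes. Of these 4 (16%) were at least 1.5-fold lower, close to the 14.1% of all measured genes, and 1 was at least 1.5-fold higher, against 14.8%. Fastkd2, an RNA-binding protein of the large subunit's RNA, was lowest on a dim signal (-0.97 ± 0.22). Eral1, a chaperone of the small subunit's RNA, had 0.251 on the choline-deficient and 0.413 on the choline-sufficient array (-0.72 ± 0.20), and the helicase gene Dhx30 had 3.79 on the choline-deficient and 6.20 on the choline-sufficient array (-0.71 ± 0.20). Mrm1, which methylates the large subunit's RNA, was the higher one, at 2.66 on the choline-deficient and 1.68 on the choline-sufficient array (0.66 ± 0.20). Ddx28, a helicase of large subunit assembly, was the fourth lower one (-0.66 ± 0.20). Mrm1 and Ddx28 were named after their values were seen.

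Ribosome proteins whose genes carry other names were nearer to all measured genes. None of the 5 (Dap3, Ptcd3, Chchd1, Aurkaip1 and Gadd45gip1) reached 1.5-fold, and their median was -0.14. Chchd1 was lowest at -0.52 ± 0.20, followed by Aurkaip1 at -0.21 ± 0.20 and Ptcd3 at -0.14 ± 0.20.

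In the lists for other steps of mitochondrial gene expression, between 7.14% and 13.3% of genes were at least 1.5-fold lower, near or below the 14.1% of all measured genes, and these shares were not tested against those of the ribosome genes. Among 15 measured translation factors and RNA-stabilising proteins 2 (13.3%) were at least 1.5-fold lower and 0 higher, with a median of -0.14. They were Slirp (-0.82 ± 0.20), the partner of Lrpprc in stabilising mitochondrial messages, and the ribosome recycling factor gene Mrrf (-0.66 ± 0.21), while Lrpprc was at -0.56 ± 0.20. Among 20 genes that charge mitochondrial transfer RNAs 2 were lower, 0 were higher and the median was -0.01. Gatc, a subunit of the enzyme that completes glutaminyl-tRNA, had 0.274 on the choline-deficient and 0.670 on the choline-sufficient array (-1.29 ± 0.20). The tyrosyl-tRNA synthetase gene Yars2 was at -0.79 ± 0.20 and the seryl-tRNA synthetase gene Sars2 at 0.56 ± 0.20.

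Of 18 RNA processing genes 2 were lower, Trit1 (-0.75 ± 0.20), which modifies transfer RNAs, and Fastk (-0.59 ± 0.20), whose probes gave -1.06 and -0.11. Their median was -0.18, and Fastkd1, a relative of Fastk, was at -0.53 ± 0.20. Of 14 genes for mitochondrial DNA maintenance and transcription 1 was lower, Ssbp1, the single-stranded DNA-binding protein (-0.77 ± 0.20, with 4 probes from -1.43 to -0.45). Polrmt, the mitochondrial RNA polymerase, was at -0.52 ± 0.20 and the nuclease gene Mgme1 at -0.43 ± 0.20, with a list median of -0.16.

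The nuclear regulators of genes for mitochondrial proteins were the only one of these 10 lists with a positive median in this scaling, 0.25 over 10 genes. This median lies between Pprc1 (0.15) and Gabpb1 (0.34), and the 3 probes of Gabpb1 ran from -0.29 to 0.75. Both genes were named after their values were seen. The medians of 5 other lists turned positive when arrays were scaled to spike-in probes. Of the 10 regulators 2 (20%) were at least 1.5-fold higher, against 14.8% of all measured genes, and 0 lower, against 14.1%. The higher ones were the coactivator genes Ppargc1a (0.94 ± 0.28) and Ppargc1b (0.72 ± 0.22), both dim. Ppargc1a had 0.0340 on the choline-deficient and 0.0178 on the choline-sufficient array, and Ppargc1b had 0.0271 on the choline-deficient and 0.0165 on the choline-sufficient array. Gabpb2 was at -0.40 ± 0.20. The genes of the DNA-binding factors themselves, Nrf1 and Gabpa, were at -0.26 and -0.24, and were named after their values were seen.

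**Figure D5:**
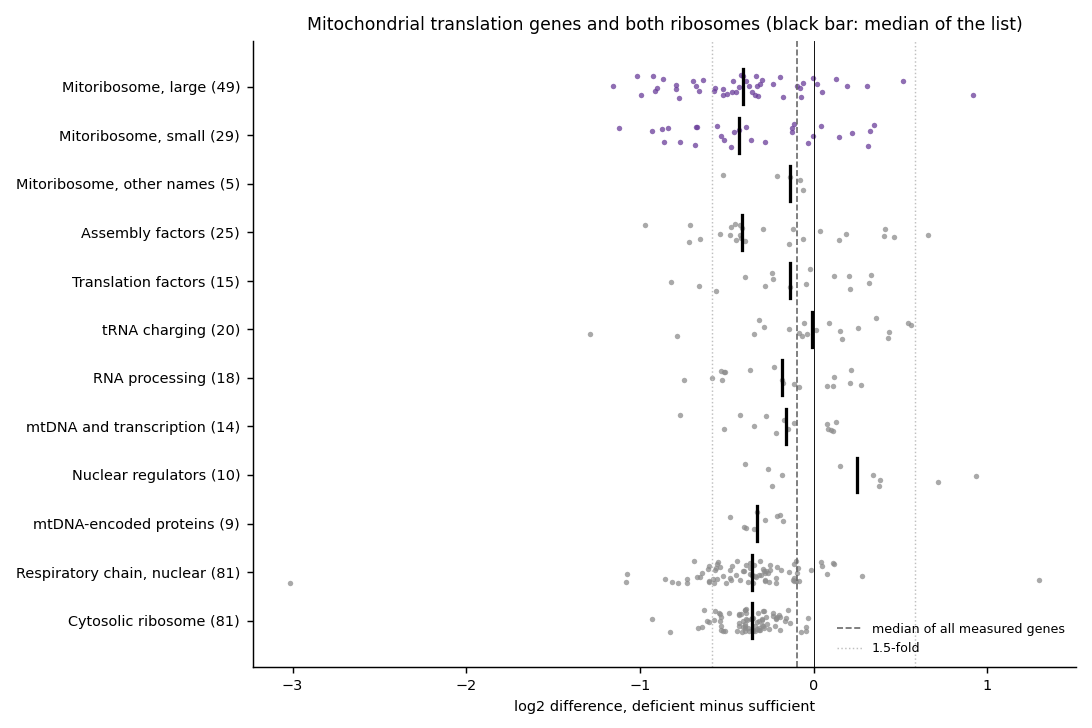
Log2 difference, choline-deficient minus choline-sufficient (x axis), of every measured gene of the mitochondrial ribosome and of 10 related lists (rows, number of genes in brackets); points are genes and black bars list medians. Both subunits sit near -0.4, the assembly factors at -0.41, the transfer RNA charging genes near 0 and the nuclear regulators at 0.25.

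Promoters of 69 of the 78 genes were found in the RefSeq promoter table (GRCm38.p6), each running from 250 bases before to 50 bases after a gene's start. They were searched on both strands for 2 motifs of factors known to control genes for mitochondrial proteins. The motif of NRF1, of 10 letters, was written as GCGC, any base, then TGCGC, and the motif of the ETS factor GABP as CCGGAAGT. The NRF1 motif was in 13 of 69 genes (18.8%) and in 5.19% of all genes in the table. The GABP motif was in 12 of 69 (17.4%) and in 4.31% of all genes. Only Mrps26 held both, and 45 of the 69 genes held neither. A match is a run of letters and not evidence of binding.

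Genes with and without a motif overlapped in their differences. The median was -0.39 over the 13 genes with the NRF1 motif and -0.43 over the 56 without it, and 3 of 13 against 18 of 56 were at least 1.5-fold lower. With the GABP motif the median was -0.60 over 12 genes and without it -0.41 over 57, with 6 of 12 and 15 of 57 lower, and no test of these gaps was made. These counts stand beside 14.1% of all measured genes and 29.5% of the 78 ribosome genes at least 1.5-fold lower. The windows below lie wholly before the gene's start, with the motif in capitals, and are shown because genes with the same motif differed in size and, for NRF1, in direction. The highest gene with the GABP motif was at 0.02. The NRF1 motif, which reads as its reverse complement in Mrpl17 and Mrpl44, stood before Mrpl17 (0.92), at chr7:105811112-105811151 on the minus strand, before Mrpl39 (0.31), at chr16:84735345-84735384 on the minus strand, before Mrpl44 (-0.64), at chr1:79775968-79776007 on the plus strand, and before Mrpl30 (-0.66), at chr1:37890379-37890418 on the plus strand. The GABP motif, in one orientation or the other, stood before Mrps27 (-0.033), at chr13:99344722-99344759 on the plus strand, before Mrpl27 (-0.69), at chr11:94653721-94653758 on the plus strand, before Mrps18c (-0.84), at chr5:100798587-100798624 on the plus strand, and before Mrpl48 (-0.87), at chr7:100583143-100583180 on the minus strand.
Mrpl17: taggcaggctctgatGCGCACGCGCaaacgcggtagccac
Mrpl39: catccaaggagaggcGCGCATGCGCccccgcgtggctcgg
Mrpl44: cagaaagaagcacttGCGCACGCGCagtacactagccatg
Mrpl30: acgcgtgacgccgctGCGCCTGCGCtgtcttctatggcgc
Mrps27: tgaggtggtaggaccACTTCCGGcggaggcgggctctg
Mrpl27: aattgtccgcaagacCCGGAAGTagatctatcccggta
Mrps18c: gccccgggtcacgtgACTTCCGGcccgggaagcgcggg
Mrpl48: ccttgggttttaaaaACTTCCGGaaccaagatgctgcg

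The 78 genes were spread over 17 chromosomes, with 11 on chromosome 11 and 8 on chromosome 17. Many shared a start region with a neighbour on the other strand. In 26 of the 69 genes with a promoter entry (37.7%) the start of a diverging gene lay within 1000 bases, against 12.3% of all genes in the table. Of 25 measured partners 3 were at least 1.5-fold lower, a share near the 14.1% of all measured genes, and 0 higher. Their median was -0.17, beside -0.10 for all measured genes, while the 25 ribosome genes paired with them had a median of -0.52. Of the partners, 2 are themselves ribosome genes. Mrpl46 and Mrps11, a large and a small subunit gene whose starts are 42 bases apart, were at -0.42 and -0.28. Mrpl2 (-1.02) is paired with the kinesin light chain gene Klc4 (-0.79) at 141 bases. Mrps18c (-0.84) is paired with the helicase gene Helq (-0.74) at 159 bases. Mrps12 (-0.43) and the tRNA synthetase gene Sars2 (0.56), 147 bases apart, lay on opposite sides of 0, as did Mrpl43 (-0.52) and the mitochondrial DNA helicase gene Twnk (0.08) at 116 bases. These pairs were picked after their values were seen.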

How the data were processed

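Total RNA of 1 choline-deficient and 1 choline-sufficient sample of 661W cells was labelled with Cy3, hybridised to Agilent single-colour arrays and quantified by Agilent Feature Extraction 12.1.1.1 (from the submitters' processing notes). Each spot has an intensity in the deposited scanner files. Background had been subtracted from it and spatial trends removed, array by array and without scaling between arrays, per the file headers. In the deposited value table this signal appears as a ratio to 1 number for each array, which equals the array's 75th percentile (1609 for choline-deficient, 1280 for choline-sufficient). Its scale is linear, genes are not centred and its direction follows the scanner values.

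Here signals were divided by the array's 75th percentile, computed without control spots, and set to log2. Outlier spots (92 and 86) were left out and 0 were saturated. A probe was measured when well above background on both arrays, and a gene was the mean over its measured probes (26461 probes). Errors were propagated from the processed errors of the scanner software. Python 3.11.15, numpy 2.4.6, pandas 2.3.3, R 4.3.3 and limma 3.58.1 (normexp with an offset of 50, quantile, cyclic loess) were used, and the scripts were tested on simulated data. With 1 array per group no test was possible, so genes were counted at 1.5-fold. The number of arrays limits the precision.

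Genes and lists were chosen with earlier results of these data known. The genes named were, in each subunit, up to 6 per direction with the largest difference over 2 errors, every member of the structural groups, genes whose name and subunit differ, genes with discordant probes and up to 3 per other list. Further ribosome genes are named with their values. Alternatives were other scalings, background correction, dim-probe filters, probe summaries and fold sizes. Probe positions are on mm9, and exon annotation of that build was not used here.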

Additional observations from a re-analysis of the deposited data

How the results depend on the processing

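No paired analysis was possible because there was 1 array per group. With 23 ribosome genes lower and 1 higher by 1.5-fold in the scaling to the 75th percentile, quantile normalization gave 14 lower and 2 higher (8 lower in the large subunit, 1 higher in the small). Cyclic loess gave 14 lower and 3 higher (large subunit 8 lower and 2 higher, small subunit 1 higher). Scaling to 5 bright spike-in probes gave 11 lower and 5 higher (large 7 and 2, small 4 and 3) and medians of -0.14 over all, -0.14 for the large and -0.16 for the small subunit. It raised the median of all genes by 0.271, while scaling to the median moved it by -0.119. A fold of 2 left 3 lower and 0 higher (large 2 and 0, small 1 lower). The smallest of the 3 folds tried gave 48 lower and 4 higher (large 31 and 2, small 17 and 2). A size over 2 scanner errors gave 39 lower and 2 higher (large 24 and 2, small 15 lower). The other 94 values of ribosome counts, medians and the subunit gap stayed within 1.5 times, for counts, or within the spread. No ribosome gene called at 1.5-fold changed direction. List medians changed sign for the ribosome proteins under other names (0.076 quantile, 0.062 loess, 0.13 spike-in) and the transfer RNA charging genes (0.055 loess, 0.26 spike-in). Under spike-in scaling they also did for translation factors (0.13), mitochondrial DNA and transcription (0.11) and RNA processing (0.091). The causes were not tested. Of the ribosome genes, 1 had a dim probe set aside, and the dimmest differences carry errors of up to 0.36.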
